A study of Danio rerio with 24 samples.

Results

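Development without vitamin E (VitE) between 18 and 24 h post-fertilization (hpf) was followed by comparing 4 pools of E– embryos collected at 24 hpf with 4 pools collected at 18 hpf, which are 8 of the 24 pools in the series. The pools were taken by their labels alone. E– embryos were spawned by Tropical 5D zebrafish that had eaten a VitE deficient diet for months as adults, and E+ embryos by adults on a VitE sufficient diet, so the deficiency reached the embryo through its parents. Each pool was the RNA of 10 whole embryos, all of normal shape and staged by landmarks: first pigment in the retinal epithelium at 24 hpf and a defined otic vesicle at 18 hpf. The other pools of the series were 4 of E+ embryos at each of 12, 18 and 24 hpf and 4 of E– embryos at 12 hpf. Embryos came from group spawning, and whether each pool had its own spawning is not stated. The p-values weigh each change against the spread between pools of a group, estimated over all 24 pools of the series. That spread may in part be technical.

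At 18 hpf a zebrafish embryo is still adding somites, the paired blocks of mesoderm that give rise to trunk muscle, from a growing tail bud. By 24 hpf somite formation is near its end, muscle fibres have built sarcomeres and twitch, primitive red blood cells start to circulate, neurons extend axons, pigment cells make melanin and the lens fills with crystallins. VitE (α-tocopherol) is a lipid-soluble antioxidant that the mother deposits in the yolk with lipoproteins and that stops the peroxidation of membrane lipids.

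Gene expression was read from the 3′ ends of mRNA, and levels are given as CPM, the reads of a gene scaled to a common library size. The 24 hpf pools held 10537272 to 13900515 reads on genes and the 18 hpf pools 14473763 to 16221517, with 22435 to 23209 genes detected at 24 hpf and 22854 to 23597 at 18 hpf. A gene with no symbol, ENSDARG00000080337, which was the most abundant of all, took 25.6% to 28.1% of the reads at 24 hpf and 27.9% to 30.3% at 18 hpf. The next most abundant by CPM were the nuclear non-coding RNA malat1 (24051 CPM at 24 hpf against 18497 at 18 hpf) and the skin keratin krt4. Values with ± are the mean and SD of n = 4 pools, and a single value for a time is the mean of its 4 pools. Of 32520 genes, 19597 had enough reads to test. A log2 fold change (log2FC) is the level at 24 hpf over that at 18 hpf, given with its standard error (SE), and a gene was called differentially expressed (DE) when its p-value from edgeR's quasi-likelihood F-test, adjusted over all genes tested by the Benjamini–Hochberg method (FDR), was under 0.1.

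Between 18 and 24 hpf, 4278 genes were DE in E– embryos, 21.8% of those tested. Of these, 2199 rose (11.2% of all genes tested) and 2079 fell (10.6%). The rises were larger than the falls: the median log2FC was 0.90 over the genes that rose and −0.52 over those that fell, and 978 genes rose by at least 1 log2 unit (4.99%), against 324 that fell by as much (1.65%). Over all genes tested the median log2FC was 0.02, and the 4 pools at 24 hpf all lay above the 4 at 18 hpf for 2221 genes (11.3%) and all below for 1906 (9.73%). These percentages are the background for each gene group described here. Genes were named by a rule of size and p-value given with the processing, and others, mostly further members of the gene groups, were added after their values had been seen. Because whole embryos were pooled, more cells of a type and more RNA per cell cannot be told apart.

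**Figure D1:**
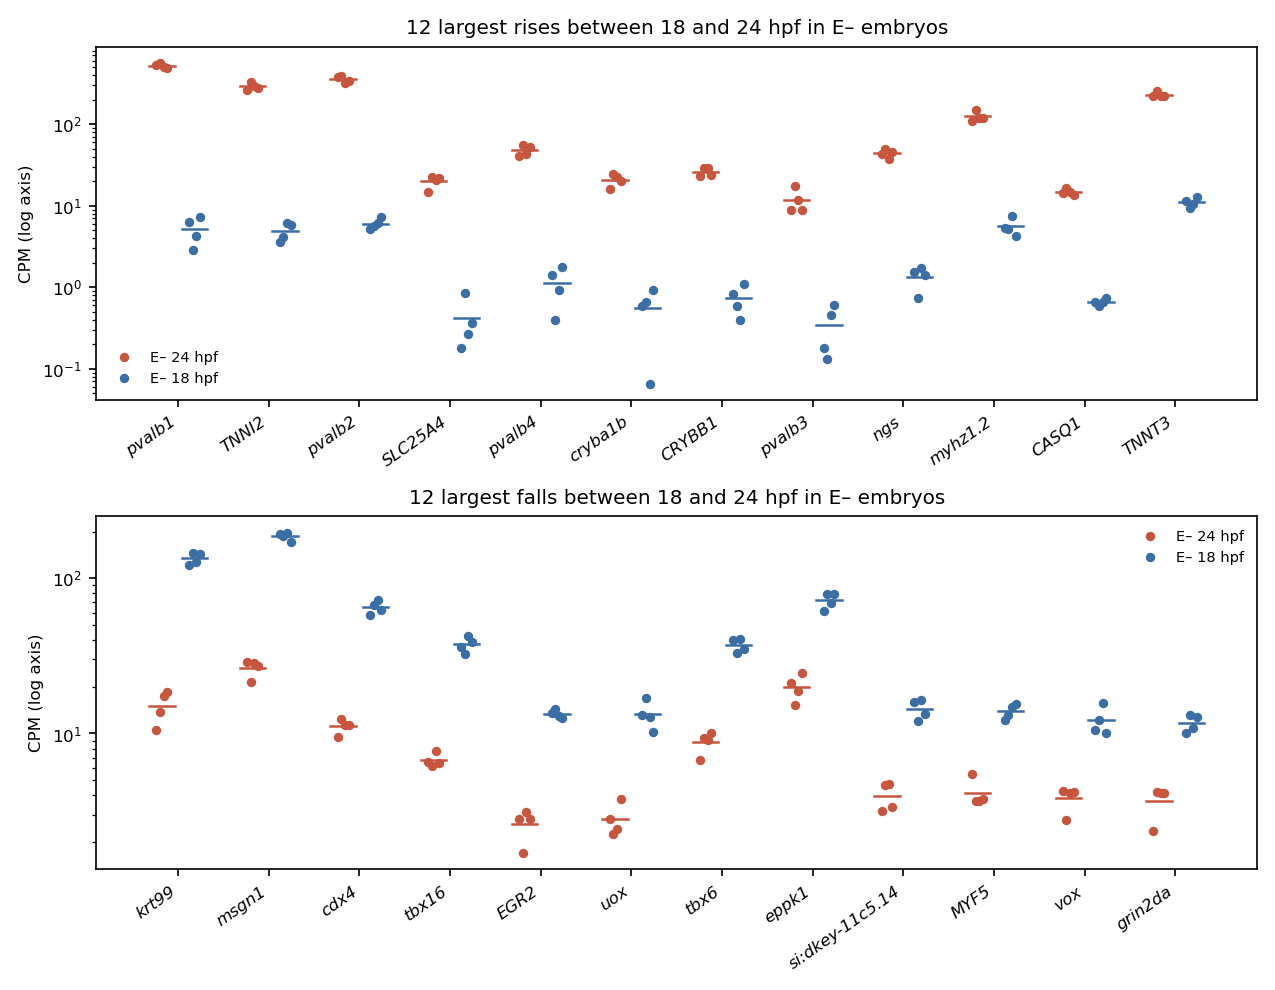
CPM on a log axis in each of the 4 E– pools at 24 hpf (red, left) and the 4 at 18 hpf (blue, right) for the 12 genes with the largest rise (top) and the 12 with the largest fall (bottom), with a line at each group's mean. The pools of the 2 times do not overlap for any of these 24 genes, as the rule for choosing them required; pvalb1 averaged 522 CPM at 24 hpf against 5.17 at 18 hpf and msgn1 26.5 CPM at 24 hpf against 188 at 18 hpf.

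Most of the 12 genes with the largest rise belong to fast skeletal muscle or to its calcium and energy supply. Highest stood pvalb1, a parvalbumin that binds calcium in the cytosol of fast fibres. It had 528, 564, 500.1 and 496 CPM in the 24 hpf pools, against 6.34, 2.86, 4.22 and 7.25 CPM in the 18 hpf pools (log2FC 6.65, SE 0.30, FDR 1.34e-18). Its relatives pvalb2 (356 ± 31.3 CPM at 24 hpf against 6.04 ± 0.891 CPM at 18 hpf; log2FC 5.88) and pvalb4 (48.5 ± 7.26 CPM at 24 hpf against 1.13 ± 0.604 CPM at 18 hpf; log2FC 5.39) rose almost as far, and pvalb3 rose as well (log2FC 5.05, SE 0.45). Every 24 hpf pool lay above every 18 hpf pool for all 4 parvalbumins. The fast troponin I gene TNNI2 (ENSDARG00000029069), whose product holds actin and myosin apart when calcium is low, reached 261, 328, 298 and 276 CPM in the 24 hpf pools, against 3.65, 4.19, 6.07 and 5.84 CPM in the 18 hpf pools (log2FC 5.88, SE 0.22, FDR 3.30e-21). TNNT3 (ENSDARG00000068457), a fast troponin T, had 225, 257, 222 and 221 CPM in the 24 hpf pools, against 11.4, 9.501, 10.4 and 12.9 CPM in the 18 hpf pools (log2FC 4.38, SE 0.15, FDR 4.72e-22). Fast myosin heavy chain myhz1.2 averaged 124.9 ± 17.7 CPM at 24 hpf against 5.58 ± 1.34 CPM at 18 hpf with a log2FC of 4.49. The calcium store protein CASQ1 (ENSDARG00000038716) averaged 14.7 ± 1.27 CPM at 24 hpf against 0.663 ± 0.0570 CPM at 18 hpf, and the mitochondrial ADP/ATP carrier SLC25A4 20.03 ± 3.46 CPM at 24 hpf against 0.419 ± 0.306 CPM at 18 hpf. The others of the 12 were the lens crystallins cryba1b and CRYBB1 and ngs, named for the notochord surface (44.0 CPM at 24 hpf against 1.35 at 18 hpf, log2FC 5.01). SLC25A4, CASQ1, pvalb3, cryba1b and CRYBB1 were below 1 CPM at 18 hpf on average, so their log2FC rests on few reads there. The symbol TNNI2 is shared by several gene models, as are many symbols here, and near-identical copies may share reads.

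The skeletal contractile genes as a group showed the same. Of 58 members tested (of 61 matched), 49 rose and none fell, with a median log2FC of 1.79, and 42 rose by at least 1 log2 unit. Genes already abundant at 18 hpf gained too: cardiac-type α-actin actc1b of the trunk muscle stood at 3116 CPM at 24 hpf against 842 at 18 hpf (log2FC 1.89), the sarcoplasmic calcium pump atp2a1 at 1958 CPM at 24 hpf against 308 at 18 hpf (2.67) and tropomyosin tpma at 1239 CPM at 24 hpf against 259.6 at 18 hpf (2.25). Creatine kinases ckma and ckmb, which buffer ATP in muscle, had log2FC of 2.97 and 3.01. Genes of the giant sarcomere proteins changed less. The log2FC was 1.53 for NEB (nebulin) and 0.87 and 1.07 for the 2 titin genes that share the symbol TTN. Parts of slow fibres and of the nerve–muscle synapse were among the 9 not called: slow myosin smyhc1 had 639, 647, 633 and 736 CPM in the 24 hpf pools, against 463, 409, 467 and 460.1 CPM in the 18 hpf pools (log2FC 0.56, FDR = 0.127), and MYBPC1, musk and CHRNG had log2FC between −0.06 and 0.20. For smyhc1 every 24 hpf pool was above every 18 hpf pool, although the change missed the threshold. Its FDR was 0.00792 with all genes that had a read, 0.0649 with the newer quasi-likelihood and 4.31e-07 with only the E– 18 and 24 hpf pools in the fit.

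**Figure D2:**
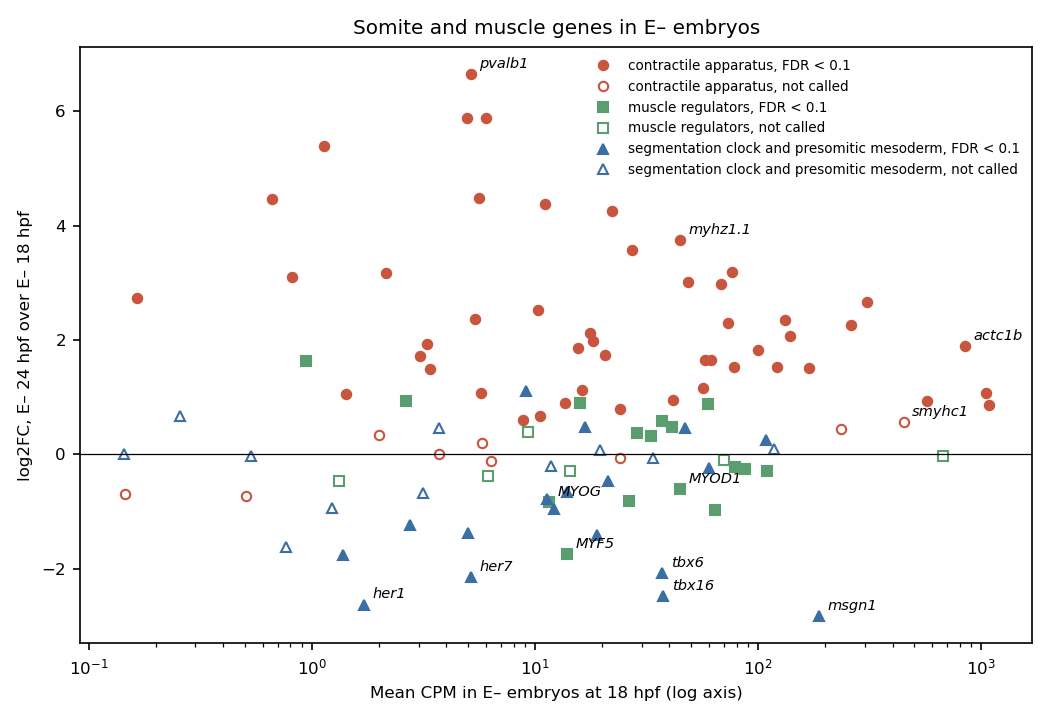
Mean CPM at 18 hpf (log axis) against the log2FC of 24 hpf over 18 hpf in E– embryos for contractile genes (circles), muscle regulators (squares) and genes of the segmentation clock and presomitic mesoderm (triangles), filled where DE. Filled circles lie above 0 without exception, whereas filled triangles reach down to −2.83 for msgn1.

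The regulators that specify muscle moved both ways, 8 up and 8 down among 22 tested. MYF5, a myogenic factor that commits cells to muscle, had 5.51, 3.67, 3.69 and 3.75 CPM in the 24 hpf pools, against 12.1, 13.2, 14.9 and 15.6 CPM in the 18 hpf pools (log2FC −1.75, SE 0.17, FDR 1.00e-09). MEOX1, a somite transcription factor, had 31.3, 25.3, 30.1 and 44.1 CPM in the 24 hpf pools, against 64.3, 62.5, 64.1 and 64.0 CPM in the 18 hpf pools (log2FC −0.97, SE 0.13, FDR 5.80e-07). Both fell with no overlap between the times. MYOD1 (29.3 CPM at 24 hpf against 44.8 at 18 hpf, log2FC −0.61), MYOG (6.51 CPM at 24 hpf against 11.6 at 18 hpf, −0.84) and PRDM1 (14.9 CPM at 24 hpf against 26.4 at 18 hpf, −0.82), which directs slow fibre identity, fell as well. MEF2C (ENSDARG00000029764), which switches on contractile genes, rose to 100.1, 116, 107 and 114 CPM in the 24 hpf pools, against 63.1, 50.9, 66.6 and 56.5 CPM in the 18 hpf pools (log2FC 0.88, SE 0.12, FDR 8.09e-07), and so did the myosin methyltransferase SMYD1 in both of its copies (log2FC 1.64 and 0.59).

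Somite formation is timed by a clock of oscillating her genes in the presomitic mesoderm, the unsegmented tissue of the tail bud, whose identity depends on T-box factors. Of 29 such genes tested (of 31), 14 fell, 9 of them by at least 1 log2 unit, and 4 rose, with a median log2FC of −0.66. The bHLH factor msgn1, needed for cells to leave the tail bud as mesoderm, had 28.7, 21.5, 28.6 and 27.3 CPM in the 24 hpf pools, against 194, 189, 198 and 172 CPM in the 18 hpf pools (log2FC −2.83, SE 0.10, FDR 1.65e-21). The T-box gene tbx16 had 6.56, 6.21, 7.72 and 6.47 CPM in the 24 hpf pools, against 36.2, 32.4, 42.7 and 39.1 CPM in the 18 hpf pools (log2FC −2.48, SE 0.15, FDR 1.79e-15). tbx6 had 6.73, 9.32, 9.14 and 10.04 CPM in the 24 hpf pools, against 40.2, 33.0, 40.6 and 35.1 CPM in the 18 hpf pools (log2FC −2.08, SE 0.13, FDR 1.75e-14). The pools of the 2 times were well apart for each of the 3.

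The clock genes her1 (0.280 CPM at 24 hpf against 1.71 at 18 hpf, log2FC −2.63), her7 (1.14 CPM at 24 hpf against 5.14 at 18 hpf, −2.15) and her11 (1.93 CPM at 24 hpf against 5.001 at 18 hpf, −1.37) fell, and so did ripply1, ripply2 and mespab, which set the boundary of a forming somite (log2FC −0.96, −1.23 and −1.75). TCF15 (paraxis in mouse), which keeps somites epithelial, fell to 7.08 CPM at 24 hpf against 18.9 at 18 hpf (log2FC −1.41). The 4 that rose were her15.1, her12, DLD and LFNG, with log2FC of 1.12, 0.49, 0.47 and 0.25, and these are Notch pathway genes that are also expressed in the nervous system. In her1 and her12 a pool of one time lay within the range of the other.

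Outside these lists, cdx4, a homeobox gene of the tail bud that acts on hox genes, had 9.53, 12.4, 11.4 and 11.4 CPM in the 24 hpf pools, against 58.3, 67.4, 72.1 and 62.2 CPM in the 18 hpf pools (log2FC −2.53, SE 0.13, FDR 1.34e-17). The ventral homeobox gene vox had 4.29, 2.75, 4.11 and 4.22 CPM in the 24 hpf pools, against 10.5, 12.3, 15.7 and 10.1 CPM in the 18 hpf pools (log2FC −1.67, SE 0.20, FDR 1.09e-07). Other large falls outside any list were si:dkey-11c5.14 (3.97 ± 0.822 CPM at 24 hpf against 14.5 ± 2.16 CPM at 18 hpf; log2FC −1.86) and the glutamate receptor subunit gene grin2da (3.69 ± 0.887 CPM at 24 hpf against 11.7 ± 1.47 CPM at 18 hpf; log2FC −1.66). The hox genes, which give segments their position along the body, fell widely: 24 of 44 tested (of 48) fell and 2 rose, with a median log2FC of −0.57. HOXB7 had 10.7, 8.19, 8.05 and 9.95 CPM in the 24 hpf pools, against 29.8, 27.4, 24.3 and 23.96 CPM in the 18 hpf pools (log2FC −1.52, SE 0.14, FDR 3.42e-10). HOXC8 had 22.1, 23.4, 22.6 and 22.5 CPM in the 24 hpf pools, against 37.0, 35.1, 40.4 and 39.6 CPM in the 18 hpf pools (log2FC −0.75, SE 0.11, FDR 1.55e-06), and HOXC6 (ENSDARG00000101954) averaged 10.3 ± 1.44 CPM at 24 hpf against 20.1 ± 2.41 CPM at 18 hpf with a log2FC of −0.96. For all 3 the highest 24 hpf pool was below the lowest 18 hpf pool.

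By position in the clusters, 8 of 11 genes of paralog groups 5 to 8 and 12 of 16 of groups 9 to 12 fell, with median log2FC of −0.71 and −0.60, and none of those 27 rose. In groups 1 to 4, 4 of 11 fell and 1 rose (median −0.09). Of the 6 tested in group 13, the most posterior, only HOXB13 was called. It rose to 5.34, 3.25, 6.29 and 4.22 CPM in the 24 hpf pools, against 0.299, 0.598, 0.726 and 0.184 CPM in the 18 hpf pools (log2FC 3.39, SE 0.60, FDR 6.46e-05). HOXB13 was also low in E– embryos at 12 hpf (0.104 CPM), so it may have had enough reads to test only through the 24 hpf pools. Not called were hoxd13a (log2FC −0.88), hoxa13b (−0.63), hoxa13a (0.92) and HOXC13 (ENSDARG00000113877, −0.21, and ENSDARG00000070353, 0.48), most of them at low levels. The difference between the groups of paralogs was not tested.

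**Figure D3:**
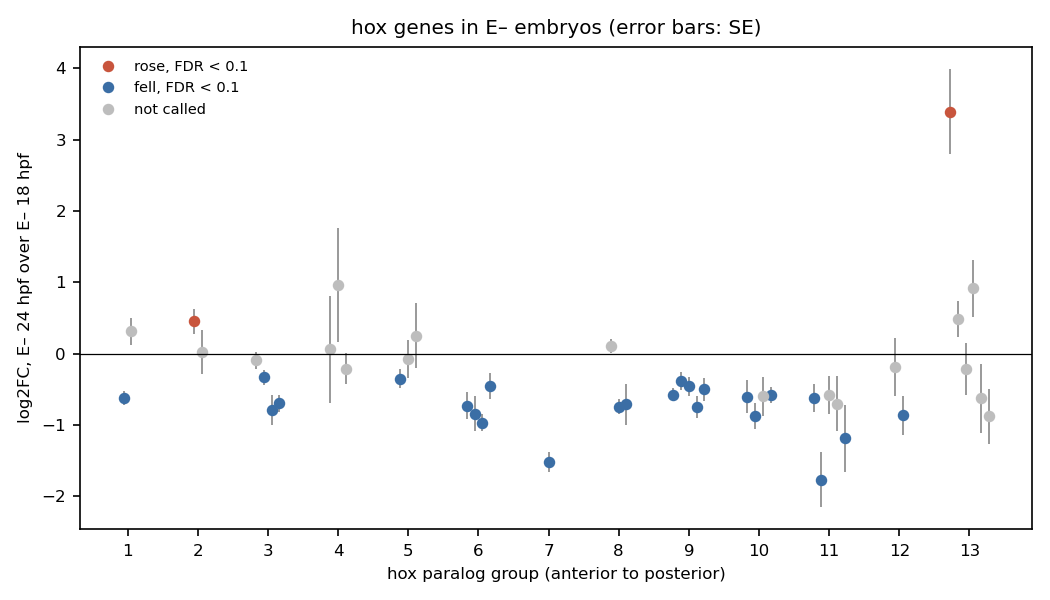
log2FC of 24 hpf over 18 hpf in E– embryos (dots; bars are 1 SE) for 44 hox genes by paralog group, from the most anterior (1) to the most posterior (13); red rose, blue fell and grey was not called. Values lie below 0 for most genes of groups 6 to 12, and HOXB13 stands alone at 3.39.

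Blood formed a further group that rose. Of 40 red blood cell genes tested (of 42), 24 rose and 5 fell, with a median log2FC of 0.87. The embryonic globin HBE1 (ENSDARG00000087390) had 811, 799.7, 832 and 759 CPM in the 24 hpf pools, against 91.9, 60.4, 151 and 105 CPM in the 18 hpf pools (log2FC 2.97, SE 0.23, FDR 1.48e-12). The α-globin hbae3 had 1056, 1104, 1049 and 1061 CPM in the 24 hpf pools, against 201, 199, 328 and 222 CPM in the 18 hpf pools (log2FC 2.17, SE 0.19, FDR 3.40e-11). A further α-globin, hbae1.1, had 597, 467, 551 and 538 CPM in the 24 hpf pools, against 75.6, 60.2, 126 and 82.4 CPM in the 18 hpf pools (log2FC 2.65, SE 0.23, FDR 3.74e-11). These globins stood several-fold higher in each 24 hpf pool, and among the 18 hpf pools replicate 3 was the highest for all 3. The symbol HBE1 is shared by several near-identical globin copies, between which reads may be split. Some membrane and heme genes of the red cell rose with them, such as the anion exchanger SLC4A1 (ENSDARG00000012881; 31.4 CPM at 24 hpf against 8.80 at 18 hpf, log2FC 1.83), spectrin SPTB (1.59), the ammonia channel RHAG (1.72) and alas2, the first enzyme of heme synthesis in red cells (1.15), whereas the iron carrier SLC25A37 (0.12), the transferrin receptor tfr1a (0.61) and a second SLC4A1 copy, ENSDARG00000024560 (0.55), were not called. The 5 that fell included the early blood regulators LMO2 (10.4 CPM at 24 hpf against 16.4 at 18 hpf, log2FC −0.66) and TAL1 (8.27 CPM at 24 hpf against 14.2 at 18 hpf, −0.78), whereas gata1a, the master regulator of red cells, was not called (log2FC 0.18, FDR = 0.823).

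Of 26 endothelial genes tested, 8 rose and 5 fell. The scavenger receptor stab2 had 39.2, 47.2, 32.5 and 42.5 CPM in the 24 hpf pools, against 15.2, 16.1, 17.6 and 21.1 CPM in the 18 hpf pools (log2FC 1.203, SE 0.15, FDR 2.29e-07). The adhesion molecule pecam1a had 3.59, 5.29, 3.61 and 4.504 CPM in the 24 hpf pools, against 1.43, 1.53, 1.58 and 0.491 CPM in the 18 hpf pools (log2FC 1.75, SE 0.32, FDR 1.08e-04). The early vessel regulator etsrp fell (13.4 CPM at 24 hpf against 24.7 at 18 hpf, log2FC −0.89), as did the apelin receptor aplnra, with 44.3, 41.8, 43.1 and 42.4 CPM in the 24 hpf pools, against 67.9, 62.2, 60.0 and 63.5 CPM in the 18 hpf pools (log2FC −0.56, SE 0.11, FDR 2.47e-04). Among 22 myeloid genes tested (of 34), 6 rose and none fell, and all 6 were low at 18 hpf. Myeloid genes near 0 at 12 and 18 hpf could have enough reads to test only through the 24 hpf pools. The counts thus describe these 22 and not the whole list. Lysozyme lyz, a granule enzyme of phagocytes, had 4.11, 3.53, 3.86 and 3.28 CPM in the 24 hpf pools, against 0.299, 0, 0.462 and 0.184 CPM in the 18 hpf pools (log2FC 3.92, SE 0.61, FDR 8.10e-06). The microfibril-associated gene MFAP4, a macrophage marker in zebrafish, rose in 2 of its copies, ENSDARG00000088745 (log2FC 5.02, SE 0.68) and ENSDARG00000090783 (log2FC 3.32, SE 0.59). Both were under 1 CPM in every 18 hpf pool, and for ENSDARG00000088745 the 4 pools together held 160 reads at 24 hpf and 6 at 18 hpf.

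In the heart list, 8 of 26 genes tested (of 30) rose and 4 fell. Heart genes near 0 at 12 and 18 hpf could have enough reads to test only through the 24 hpf pools. One of the 8 was nppa, with 34 reads at 24 hpf and 2 at 18 hpf. The counts thus describe these 26 and not the whole list. The cardiac myosin light chain MYL7 had 28.5, 22.7, 27.4 and 33.2 CPM in the 24 hpf pools, against 15.13, 8.37, 10.8 and 8.78 CPM in the 18 hpf pools (log2FC 1.37, SE 0.17, FDR 1.22e-07). The heavy chain MYH7 had 6.12, 7.41, 7.88 and 9.57 CPM in the 24 hpf pools, against 1.67, 1.86, 2.44 and 1.60 CPM in the 18 hpf pools (log2FC 2.03, SE 0.32, FDR 1.34e-05). The natriuretic peptide gene nppb, a hormone of the working heart muscle, rose on few reads and averaged 1.11 CPM at 24 hpf against 0.154 at 18 hpf. The transcription factors GATA5 (log2FC −0.84), GATA6 (−0.66) and HAND2 (−0.49), which specify heart cells, and HAS2, the hyaluronan synthase of the heart cushions, with 6.30, 4.24, 3.35 and 4.60 CPM in the 24 hpf pools, against 10.8, 13.02, 8.91 and 10.4 CPM in the 18 hpf pools (log2FC −1.23, SE 0.18, FDR 2.99e-06), made up the 4 that fell.

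Pigment genes rose while most neural crest genes that changed fell. Of 29 pigment genes tested (of 34), 16 rose and 2 fell, with a median log2FC of 0.94. TYRP1 (ENSDARG00000056151), a melanin synthesis enzyme, had 30.8, 35.93, 31.7 and 31.2 CPM in the 24 hpf pools, against 2.69, 3.19, 2.24 and 1.17 CPM in the 18 hpf pools (log2FC 3.80, SE 0.23, FDR 1.68e-15). The second gene of that symbol, ENSDARG00000029204, had 42.9, 56.2, 52.4 and 38.5 CPM in the 24 hpf pools, against 8.97, 10.5, 7.39 and 6.70 CPM in the 18 hpf pools (log2FC 2.504, SE 0.17, FDR 5.76e-14). gch2, which makes the pteridine precursors of yellow pigment cells, had 52.2, 52.5, 48.98 and 42.0 CPM in the 24 hpf pools, against 11.2, 7.24, 9.96 and 9.77 CPM in the 18 hpf pools (log2FC 2.36, SE 0.19, FDR 4.74e-12). No 24 hpf pool overlapped an 18 hpf pool for these 3. The melanosome protein pmela (32.6 CPM at 24 hpf against 6.61 at 18 hpf, log2FC 2.30), DCT (7.64 CPM at 24 hpf against 1.66 at 18 hpf, 2.201), SLC45A2 (13.04 CPM at 24 hpf against 3.196 at 18 hpf, 2.03) and the iridophore enzyme pnp4a (4.17 CPM at 24 hpf against 0.560 at 18 hpf, 2.87) rose as well, with MITF, the regulator of melanophore fate (1.16). TYR itself was at 0.605 CPM at 24 hpf against 0.420 at 18 hpf and was not called (FDR = 0.732).

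Of 24 neural crest genes tested, 10 fell and 5 rose (median log2FC −0.28). snai1b, which drives crest cells out of the neural tube, had 22.0, 23.3, 21.1 and 21.6 CPM in the 24 hpf pools, against 37.2, 36.6, 37.7 and 37.9 CPM in the 18 hpf pools (log2FC −0.76, SE 0.10, FDR 9.02e-07), a difference many times the spread within either group. SOX5 (22.1 CPM at 24 hpf against 31.7 at 18 hpf, log2FC −0.53), FOXD3 (−0.57) and the endothelin receptor ednrab (13.9 CPM at 24 hpf against 34.3 at 18 hpf, −1.30) fell. TFAP2E, which acts in melanophores, rose to 6.12, 8.47, 9.56 and 5.25 CPM in the 24 hpf pools, against 1.61, 1.13, 1.78 and 1.66 CPM in the 18 hpf pools (log2FC 2.25, SE 0.40, FDR 8.67e-05).

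In the nervous system the genes of differentiated neurons rose: 38 of 57 tested (of 62) rose and none fell, with a median log2FC of 0.89. The neuronal RNA-binding gene ELAVL4 had 175, 154, 184 and 186 CPM in the 24 hpf pools, against 75.7, 66.8, 73.95 and 70.4 CPM in the 18 hpf pools (log2FC 1.29, SE 0.13, FDR 1.00e-09). The transcription factor EBF3 had 83.7, 91.1, 84.7 and 78.4 CPM in the 24 hpf pools, against 41.0, 41.1, 42.2 and 40.0 CPM in the 18 hpf pools (log2FC 1.04, SE 0.11, FDR 5.51e-09). Both were higher in every 24 hpf pool than in any 18 hpf pool. Genes of inhibitory transmission had the 3 largest log2FC of the list: the vesicular GABA and glycine transporter SLC32A1 stood at 11.5 CPM at 24 hpf against 2.62 at 18 hpf (log2FC 2.13), and the GABA synthesis enzymes GAD1 at 5.84 CPM at 24 hpf against 1.60 at 18 hpf (1.87) and GAD2 at 5.50 CPM at 24 hpf against 1.68 at 18 hpf (1.70). For excitatory glutamate neurons SLC17A6 had a log2FC of 0.66, and for cholinergic ones SLC18A3 of 1.11. Synapse and axon genes such as SV2A (1.51), SYN2 (1.67), CPLX2 (1.36) and gap43 (0.89) lay in between.

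Among 40 progenitor and proneural genes, 17 rose and 2 fell. FABP7 (ENSDARG00000007697), a fatty acid binding protein of radial glia, had 125.4, 138, 143 and 92.4 CPM in the 24 hpf pools, against 38.3, 37.5, 31.9 and 30.1 CPM in the 18 hpf pools (log2FC 1.86, SE 0.16, FDR 3.30e-11). The proneural factor ascl1b had 46.6, 52.1, 46.05 and 47.3 CPM in the 24 hpf pools, against 19.3, 17.2, 21.3 and 16.2 CPM in the 18 hpf pools (log2FC 1.38, SE 0.14, FDR 1.00e-09). The Notch ligand DLL1 (ENSDARG00000010791) had 269, 288, 259 and 233 CPM in the 24 hpf pools, against 159.6, 156, 168 and 168 CPM in the 18 hpf pools (log2FC 0.69, SE 0.08, FDR 3.86e-08). These are genes of cells on the way to becoming neurons or radial glia. Genes that maintain progenitors, SOX2 (68.5 CPM at 24 hpf against 66.9 at 18 hpf), SOX3 (309 CPM at 24 hpf against 287 at 18 hpf), sox19a (126 CPM at 24 hpf against 136 at 18 hpf) and nes (152 CPM at 24 hpf against 131 at 18 hpf), were not called, with log2FC between −0.11 and 0.21. HES1, a repressor of neurogenesis, and HES4 were the 2 that fell (log2FC −0.46 and −0.31). The genes her4.2 and her4.1 of the same list rose (2.03 and 1.08).

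The glia and myelin list moved both ways, 6 up and 7 down among 20 tested. The glutamate transporter SLC1A2 of astroglia had 12.8, 16.3, 16.1 and 16.5 CPM in the 24 hpf pools, against 4.13, 2.92, 5.21 and 4.98 CPM in the 18 hpf pools (log2FC 1.84, SE 0.30, FDR 2.12e-05), and the gap junction gene GJA1 rose too (log2FC 0.79). EGR2, which marks 2 hindbrain segments and later drives Schwann cell myelination, had 2.80, 1.69, 3.10 and 2.82 CPM in the 24 hpf pools, against 13.5, 14.4, 12.996 and 12.7 CPM in the 18 hpf pools (log2FC −2.38, SE 0.19, FDR 6.19e-12). Of 37 genes of the midbrain–hindbrain boundary and hindbrain tested, 12 fell and 3 rose (median −0.16). hoxb1b had 29.7, 30.7, 27.3 and 30.9 CPM in the 24 hpf pools, against 43.7, 48.4, 51.98 and 38.3 CPM in the 18 hpf pools (log2FC −0.62, SE 0.10, FDR 2.69e-05). The ephrin EFNB2 (ENSDARG00000020164), which keeps segment borders sharp, had 154, 150.02, 152 and 155 CPM in the 24 hpf pools, against 198, 209.6, 206 and 197 CPM in the 18 hpf pools (log2FC −0.41, SE 0.08, FDR 1.09e-04). The boundary genes PAX2, EN2, PAX5 and CNPY1 were not called, and en1b was among the 3 that rose (log2FC 0.79). Among the 12 that fell were GBX2 (−0.54), irx7 (−0.93) and the FGF inhibitor SPRY4, which also acts at the boundary (−0.39).

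Genes of lens crystallins, the proteins that make the lens transparent, rose by several log2 units. Of 57 crystallin genes, 26 passed the filter on reads, which crystallins silent at 18 hpf could pass only through the 24 hpf pools, so that counts over them describe these 26 and not the family. Of the 26, 21 rose, all by at least 1 log2 unit, none fell, and the median log2FC was 3.66. CRYBB1 had 22.9, 28.9, 29.2 and 23.9 CPM in the 24 hpf pools, against 0.837, 0.598, 0.396 and 1.11 CPM in the 18 hpf pools (log2FC 5.13, SE 0.29, FDR 3.08e-16). cryba1b had 16.01, 24.9, 22.7 and 19.9 CPM in the 24 hpf pools, against 0.598, 0.664, 0.0660 and 0.921 CPM in the 18 hpf pools (log2FC 5.18, SE 0.33, FDR 1.31e-14). cryba1l1 had 15.5, 28.9, 26.4 and 17.2 CPM in the 24 hpf pools, against 0.957, 1.46, 0.726 and 2.27 CPM in the 18 hpf pools (log2FC 4.01, SE 0.38, FDR 3.47e-10). All 4 pools at 24 hpf were above 15 CPM for these genes and all 4 at 18 hpf under 3 CPM. For crygm2d7, which had 37 reads at 24 hpf and none at 18 hpf, the fold was at least 16.2, taking 3 reads over the group as the floor. The median was 3.66 also with that gene at its bound.

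Of 11 other lens genes tested, 5 rose and none fell. MIP (ENSDARG00000037285), the water channel of lens fibres, had 4.64, 6.21, 5.62 and 6.66 CPM in the 24 hpf pools, against 1.79, 2.52, 1.78 and 2.58 CPM in the 18 hpf pools (log2FC 1.41, SE 0.30, FDR 6.30e-04), lim2.1 a log2FC of 1.43 and the regulator PROX1 one of 0.89, whereas the early lens factors pitx3 and foxe3 were not called (log2FC 0.18 and 0.19). Few retinal genes were called: 2 of 35 genes of the eye field and retina rose and none fell, below the shares over all genes. MAB21L1 had 20.9, 15.4, 21.8 and 27.02 CPM in the 24 hpf pools, against 12.1, 12.9, 11.1 and 16.4 CPM in the 18 hpf pools (log2FC 0.69, SE 0.21, FDR 0.0165). The visual cycle enzyme RPE65 (ENSDARG00000094752) had 5.25, 8.26, 6.29 and 7.60 CPM in the 24 hpf pools, against 2.87, 6.51, 3.89 and 4.05 CPM in the 18 hpf pools (log2FC 0.67, SE 0.24, FDR 0.0493), and in both the pools of the 2 times overlapped. The RPE65 call was lost without any 1 of 18 hpf replicates 1, 3 and 4 and 24 hpf replicates 2 and 4, with log2FC of 0.51 to 0.63 and FDR of 0.106 to 0.189. The retinal homeobox genes rx1 (log2FC 0.36, FDR = 0.117, but 0.059 with the newer quasi-likelihood, 0.0198 with only the E– 18 and 24 hpf pools in the fit and 0.0919 without 24 hpf replicate 3), rx2 and OTX2 were not called.

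In the notochord and Hedgehog list, 11 of 40 genes rose and 9 fell. The cartilage matrix gene MATN4 had 75.5, 85.5, 76.3 and 93.0 CPM in the 24 hpf pools, against 19.3, 11.7, 14.8 and 19.5 CPM in the 18 hpf pools (log2FC 2.34, SE 0.16, FDR 8.98e-14). MATN3 (ENSDARG00000069265) rose likewise (log2FC 1.69), with the sheath collagens COL9A2 (0.63) and COL2A1 (2 genes, 0.66 and 0.45). chrd, the BMP antagonist of the organizer and early axial mesoderm, had 3.59, 3.53, 4.28 and 4.69 CPM in the 24 hpf pools, against 11.1, 12.6, 10.8 and 9.58 CPM in the 18 hpf pools (log2FC −1.46, SE 0.17, FDR 4.44e-08), and noto, which specifies the notochord, fell to 3.49 CPM at 24 hpf against 6.39 at 18 hpf (log2FC −0.87).

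Of 60 collagen, matrix and collagen modifying genes tested (of 65), 27 rose and 12 fell, and most of the 12 were enzymes, chaperones or glycoproteins other than collagens. COL1A1 had 292, 278, 259 and 308 CPM in the 24 hpf pools, against 80.0, 82.8, 73.0 and 74.6 CPM in the 18 hpf pools (log2FC 1.87, SE 0.11, FDR 1.33e-15). COL11A2 had 59.6, 62.5, 57.2 and 62.0 CPM in the 24 hpf pools, against 14.2, 14.9, 16.5 and 13.9 CPM in the 18 hpf pools (log2FC 2.02, SE 0.14, FDR 7.08e-14). FN1 (ENSDARG00000006526), fibronectin, which lines somite borders, had 23.4, 32.1, 23.1 and 30.4 CPM in the 24 hpf pools, against 78.9, 75.3, 89.3 and 88.9 CPM in the 18 hpf pools (log2FC −1.61, SE 0.12, FDR 4.17e-13). SERPINH1 (ENSDARG00000019949), the collagen chaperone, and the prolyl hydroxylase p4ha1a fell (log2FC −1.12 and −1.11), in the same pools in which COL1A2 (log2FC 1.33) and POSTN (ENSDARG00000104267; 1.08) rose. The actinodin genes and1 and and2 build actinotrichia, the fibres that stiffen the fin fold. The gene and1 had 15.7, 11.3, 12.6 and 11.5 CPM in the 24 hpf pools, against 1.49, 1.53, 0.924 and 0.799 CPM in the 18 hpf pools (log2FC 3.42, SE 0.28, FDR 1.11e-11). The gene and2 had 5.77, 7.34, 8.97 and 7.23 CPM in the 24 hpf pools, against 0.179, 0.0664, 0.264 and 0.0614 CPM in the 18 hpf pools (log2FC 5.61, SE 0.61, FDR 7.67e-09). They are 2 of the 7 genes that rose among 35 tested (of 39) for fin bud, bone and cartilage, of which 5 fell. A gene as low at 18 hpf as and2 could pass the filter on reads through the 24 hpf pools where it is high. These counts thus describe the 35 tested and not the whole list.

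Skin genes changed in both directions, 14 up and 12 down among 41 tested. Outside the list, krt99, a keratin with the largest fall of the genes that met the rule for naming, had 10.5, 13.8, 17.5 and 18.6 CPM in the 24 hpf pools, against 122, 146, 128 and 144 CPM in the 18 hpf pools (log2FC −3.16, SE 0.12, FDR 6.26e-21). eppk1, a plakin of epithelial cells, had 21.1, 15.2, 18.8 and 24.7 CPM in the 24 hpf pools, against 61.8, 78.9, 68.9 and 79.5 CPM in the 18 hpf pools (log2FC −1.87, SE 0.12, FDR 3.35e-14). Keratins krt17 (265 CPM at 24 hpf against 575 at 18 hpf, log2FC −1.12), krt92 (458 CPM at 24 hpf against 930.4 at 18 hpf, −1.02) and krt5 (411 CPM at 24 hpf against 721 at 18 hpf, −0.81) fell, whereas krt4, among the 3 most abundant genes, had 9179, 8709, 9263 and 9241 CPM in the 24 hpf pools, against 7082, 6288, 7354 and 6719 CPM in the 18 hpf pools (log2FC 0.41, SE 0.08, FDR 1.60e-04). aep1 rose to 79.6, 59.7, 61.5 and 58.2 CPM in the 24 hpf pools, against 6.52, 3.65, 4.22 and 3.13 CPM in the 18 hpf pools (log2FC 3.88, SE 0.22, FDR 5.29e-16). The keratins thus did not move as a class, and aep1 was under 10 CPM in each 18 hpf pool.

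Ionocytes, the ion transporting cells of the skin, showed 8 genes up and 7 down among 25. The sodium pump subunit atp1a1a.2 had 28.7, 27.6, 33.9 and 26.6 CPM in the 24 hpf pools, against 8.85, 7.18, 6.07 and 4.24 CPM in the 18 hpf pools (log2FC 2.15, SE 0.21, FDR 4.45e-10). Its partner subunit ATP1B1 (ENSDARG00000076833) had 50.6, 44.1, 58.5 and 49.7 CPM in the 24 hpf pools, against 17.1, 17.2, 18.9 and 19.7 CPM in the 18 hpf pools (log2FC 1.48, SE 0.14, FDR 1.58e-10). The ammonium transporter RHBG fell to 17.9 CPM at 24 hpf against 37.2 at 18 hpf (log2FC −1.06). In the pronephros, the embryonic kidney, 5 of 28 genes rose and 5 fell: the bicarbonate transporter SLC4A4 (ENSDARG00000013730) had a log2FC of 0.74 and IRX3 (ENSDARG00000031138) of −0.69. The hatching gland enzymes he1.1 (647 CPM at 24 hpf against 694 at 18 hpf) and he1.2 (911 CPM at 24 hpf against 745 at 18 hpf) were not called, and zgc:174153, of the same list, had 52.4, 33.0, 53.8 and 71.8 CPM in the 24 hpf pools, against 119, 134, 158 and 125.1 CPM in the 18 hpf pools (log2FC −1.35, SE 0.15, FDR 1.46e-08). Of 23 genes of that list 4 rose, among them the secretory protein AGR2 (log2FC 1.14), and 4 fell, among them the urate oxidase uox, with 2.80, 2.26, 2.43 and 3.75 CPM in the 24 hpf pools, against 13.2, 16.9, 12.8 and 10.197 CPM in the 18 hpf pools (log2FC −2.25, SE 0.22, FDR 6.48e-10).

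In the ear and lateral line list 6 of 40 genes rose and 7 fell, beside 11.2% and 10.6% over all genes. gfi1aa, a zinc finger repressor that in zebrafish acts in primitive blood as well, had 0.437, 0.988, 0.755 and 0.469 CPM in the 24 hpf pools, against 3.65, 4.58, 4.09 and 6.02 CPM in the 18 hpf pools (log2FC −2.74, SE 0.30, FDR 1.32e-08). oc90, a protein of the ear stones, had 56.1, 53.1, 52.8 and 49.6 CPM in the 24 hpf pools, against 109, 85.3, 99.5 and 98.9 CPM in the 18 hpf pools (log2FC −0.89, SE 0.13, FDR 3.66e-06). Of 35 genes of endoderm, liver and pancreas tested (of 42), 7 rose and 9 fell, above the 11.2% and 10.6% over all genes. The members named next all rose, and those that fell, which were more, are not named in this paragraph. ONECUT1, which acts in liver and in neurons, had 136, 136, 137 and 137 CPM in the 24 hpf pools, against 60.0, 56.7, 55.5 and 47.7 CPM in the 18 hpf pools (log2FC 1.31, SE 0.18, FDR 1.45e-06). CP (ceruloplasmin), a copper carrier made by the liver, had 6.47, 11.3, 4.78 and 6.85 CPM in the 24 hpf pools, against 1.38, 0.930, 3.30 and 1.47 CPM in the 18 hpf pools (log2FC 2.06, SE 0.34, FDR 2.56e-05). The hormone gene SST rose on few reads (1.64 CPM at 24 hpf against 0.136 at 18 hpf). A gene as low at 18 hpf as SST could pass the filter on reads through the 24 hpf pools, so the counts describe the 35 tested. Among 18 germ cell genes tested none rose and 3 fell: DDX4 (vasa) had 4.29, 3.74, 3.44 and 4.13 CPM in the 24 hpf pools, against 6.04, 7.84, 8.64 and 7.68 CPM in the 18 hpf pools (log2FC −0.95, SE 0.19, FDR 3.26e-04), and the egg coat genes zp2.1 and zp3b fell as well, zp2.1 to 0.646 CPM at 24 hpf against 2.71 at 18 hpf and zp3b with a log2FC of −0.96. The zp3b call was not stable: its FDR was 0.115 with all genes that had a read, 0.131 with the newer quasi-likelihood, 0.144 with only the E– 18 and 24 hpf pools in the fit, and 0.103 to 0.137 without 18 hpf replicate 1, 18 hpf replicate 2 or 24 hpf replicate 4, with log2FC between −0.97 and −0.81.

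Glycolysis genes rose more often than they fell. Of 52 glycolysis genes tested (of 61), 20 rose, 15 of them by at least 1 log2 unit, and 5 fell, with a median log2FC of 0.30. ENO3, the muscle enolase, had 165, 188, 187 and 178 CPM in the 24 hpf pools, against 58.6, 56.2, 62.2 and 53.1 CPM in the 18 hpf pools (log2FC 1.64, SE 0.10, FDR 9.33e-15). GAPDH had 307, 306, 318 and 313 CPM in the 24 hpf pools, against 166, 144, 153 and 139 CPM in the 18 hpf pools (log2FC 1.05, SE 0.08, FDR 3.97e-12). The muscle phosphoglycerate mutase PGAM2 had 20.4, 16.9, 17.4 and 23.5 CPM in the 24 hpf pools, against 2.69, 1.196, 2.37 and 2.33 CPM in the 18 hpf pools (log2FC 3.17, SE 0.25, FDR 4.05e-12). Several of the large rises were muscle forms of an enzyme, and PGAM2 and ENO3 also count among the 58 contractile genes. Hexokinase HK2 and HIF1A (ENSDARG00000034293), the regulator of the response to low oxygen, fell (log2FC −0.59 and −0.31).

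Genes of the respiratory chain, nuclear and mitochondrial, rose far more often than they fell. Of 101 nuclear genes tested, 39 rose and 1 fell (median log2FC 0.23), and of 13 mitochondrially encoded genes 9 rose and 1 fell (median 0.39). MT-CO2, a subunit of complex IV, had 1846, 1878, 1848 and 1724 CPM in the 24 hpf pools, against 1412, 1192, 1524 and 1358 CPM in the 18 hpf pools (log2FC 0.41, SE 0.09, FDR 0.00130), MT-CYB of complex III a log2FC of 0.42 and MT-ND3 of complex I one of 0.48. Complex I subunit NDUFB1 averaged 43.2 ± 4.92 CPM at 24 hpf against 30.3 ± 2.38 CPM at 18 hpf and the ATP synthase subunit atp5meb 173 ± 8.20 CPM at 24 hpf against 128 ± 12.6 CPM at 18 hpf. Another ATP synthase subunit, atp5mc1, had 180.0, 186, 196 and 159.5 CPM in the 24 hpf pools, against 122, 98.7, 113 and 119 CPM in the 18 hpf pools (log2FC 0.67, SE 0.12, FDR 6.55e-05). Cytosolic ribosomal protein genes stayed close to their 18 hpf levels, with 9 of 78 called up, 1 down and a median log2FC of 0.09. The 9 rises were close to the 11.2% over all genes, and the 1 fall was below the 10.6%. By p-value the most changed were rplp2 (1047 CPM at 24 hpf against 768 at 18 hpf, log2FC 0.45), rps27a (2460.1 CPM at 24 hpf against 2076 at 18 hpf, 0.24) and RPL7L1 (46.6 CPM at 24 hpf against 65.1 at 18 hpf, −0.48), of which RPL7L1 is a protein of ribosome assembly.

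Yolk lipoprotein and plasma protein genes, expressed by the yolk syncytial layer and the liver, fell more often than they rose, 10 against 7 of 46 tested. fetub, a plasma protease inhibitor, had 277, 241, 255 and 271 CPM in the 24 hpf pools, against 439.9, 511, 453 and 411 CPM in the 18 hpf pools (log2FC −0.80, SE 0.10, FDR 4.36e-07). The lipoprotein gene apoeb had 822, 952, 796 and 863 CPM in the 24 hpf pools, against 1138, 1354, 1295 and 1228 CPM in the 18 hpf pools (log2FC −0.55, SE 0.08, FDR 4.62e-06). MTTP, which loads lipid onto lipoproteins, had 19.4, 22.3, 21.7 and 23.6 CPM in the 24 hpf pools, against 30.01, 38.5, 41.1 and 43.9 CPM in the 18 hpf pools (log2FC −0.82, SE 0.13, FDR 1.10e-05). For each of these the pools of the 2 times did not overlap. apoa1b (1171 CPM at 24 hpf against 1187 at 18 hpf) and apoa2 (475 CPM at 24 hpf against 449.8 at 18 hpf) were not called, and apoea rose (log2FC 1.62).

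Of 59 genes tested (of 63) that handle VitE or act as antioxidants, 10 rose and 6 fell, with a median log2FC of 0.08. Over all genes 11.2% rose and 10.6% fell, so the falls here were close to that share. The peroxiredoxin prdx1 had 41.5, 40.5, 37.1 and 44.5 CPM in the 24 hpf pools, against 15.7, 14.2, 17.8 and 14.8 CPM in the 18 hpf pools (log2FC 1.39, SE 0.16, FDR 2.45e-08). PRDX1 (ENSDARG00000025350), a second gene of that name, averaged 118 ± 16.1 CPM at 24 hpf against 77.6 ± 4.41 CPM at 18 hpf (log2FC 0.60). The mitochondrial superoxide dismutase SOD2 had 3.15, 4.31, 5.37 and 5.07 CPM in the 24 hpf pools, against 0.777, 1.40, 0.726 and 2.21 CPM in the 18 hpf pools (log2FC 1.80, SE 0.33, FDR 1.10e-04). NFE2L2, the regulator of the antioxidant response, rose (log2FC 0.59) and so did CAT, catalase (0.62), while GCLC, the first enzyme of glutathione synthesis (−0.48) and gpx4a, which reduces lipid peroxides (−0.41), fell. Without 24 hpf replicate 4 the FDR was 0.103 for CAT (log2FC 0.55) and 0.102 for NFE2L2 (0.52), and without 18 hpf replicate 1 it was 0.135 for NFE2L2 (0.48). TTPA, the α-tocopherol transfer protein, was at 0.791 CPM at 24 hpf against 0.567 at 18 hpf and was not called (log2FC 0.46, SE 0.68), and its low reads leave a wide interval.

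Few cell division genes were called. Of 67 tested, 3 rose and 7 fell, below the 11.2% and close to the 10.6% over all genes, with a median log2FC of −0.02. RRM2 (ENSDARG00000020711), a subunit of the enzyme that makes deoxynucleotides, averaged 143 ± 26.3 CPM at 24 hpf against 90.4 ± 17.8 CPM at 18 hpf (log2FC 0.66), a call that was lost without 18 hpf replicate 2 (0.58, FDR 0.124) or 24 hpf replicate 2 (0.57, FDR 0.125), and with DESeq2 on all pools (0.66, FDR 0.108). The spindle genes NUSAP1 and TPX2 fell, NUSAP1 with a log2FC of −0.29. TPX2 had 308, 312, 319.7 and 311 CPM in the 24 hpf pools, against 382, 359, 382 and 344 CPM in the 18 hpf pools (log2FC −0.23, SE 0.07, FDR 0.0152). In the list of cell cycle exit and cell death genes 6 of 41 rose and 8 fell: pmaip1, a cell death gene, fell to 5.48 CPM at 24 hpf against 11.3 at 18 hpf (log2FC −1.05), whereas cdkn1a was low (1.37 CPM at 24 hpf against 2.28 at 18 hpf) and not called. Among 32 histone genes tested, 2 rose, below the 11.2% over all genes, and 4 fell, close to the 10.6%. The replication dependent hist2h3ca1 had 1.66, 1.27, 1.85 and 1.97 CPM in the 24 hpf pools, against 5.32, 4.45, 5.01 and 4.36 CPM in the 18 hpf pools (log2FC −1.51, SE 0.27, FDR 7.84e-05) and h2bc1 averaged 9.56 ± 2.89 CPM at 24 hpf against 21.5 ± 4.41 CPM at 18 hpf, while the variant H3-3B, used outside S phase, averaged 444 ± 5.26 CPM at 24 hpf against 365 ± 36.8 CPM at 18 hpf (log2FC 0.28). Transcripts of most replication dependent histones lack a poly(A) tail, and their part in a 3′ library was not tested.

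Chaperone genes fell more often than they rose, 15 against 6 of 53 tested (median log2FC −0.23). hsf1, the regulator of the heat shock response, had 14.3, 8.33, 9.06 and 11.3 CPM in the 24 hpf pools, against 23.4, 22.3, 22.8 and 18.6 CPM in the 18 hpf pools (log2FC −1.03, SE 0.17, FDR 3.73e-05). calr3b, a calreticulin of the endoplasmic reticulum, had 208, 222, 213 and 179 CPM in the 24 hpf pools, against 329, 313, 310.0 and 330.4 CPM in the 18 hpf pools (log2FC −0.64, SE 0.09, FDR 8.45e-07). HSPA5 (−0.35) and HYOU1 (−0.45) fell, and the small chaperone HSPB8 rose (log2FC 0.75). Of 41 proteasome subunits none rose, below the 11.2% over all genes, and 5 fell, close to the 10.6%. The largest falls were log2FC of −0.67 for PSMD2 (ENSDARG00000103190), −0.47 for psmc1b and −0.46 for PSMD9. The other gene of the symbol PSMD2, ENSDARG00000099653, was not called (−0.19). In the mTOR list, the nutrient sensing pathway, 6 of 56 genes rose and 6 fell, close to the 11.2% and 10.6% over all genes. The insulin signal adaptor IRS2 (ENSDARG00000075282) rose (19.1 CPM at 24 hpf against 10.4 at 18 hpf). The amino acid transporter subunit slc3a2a fell (23.8 CPM at 24 hpf against 39.5 at 18 hpf). So did the cap-binding factor EIF4E, ENSDARG00000077012 (13.1 CPM at 24 hpf against 20.4 at 18 hpf). MTOR itself was not called (21.4 CPM at 24 hpf against 21.4 at 18 hpf). Of 32 circadian genes 5 rose, among them the repressors PER3 (13.7 CPM at 24 hpf against 7.85 at 18 hpf) and nfil3-5 (25.2 CPM at 24 hpf against 14.9 at 18 hpf), and 2 fell, among them bmal2 (15.3 CPM at 24 hpf against 26.8 at 18 hpf). These rises were not far above the 11.2% over all genes, and the falls were below the 10.6%.

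**Figure D4:**
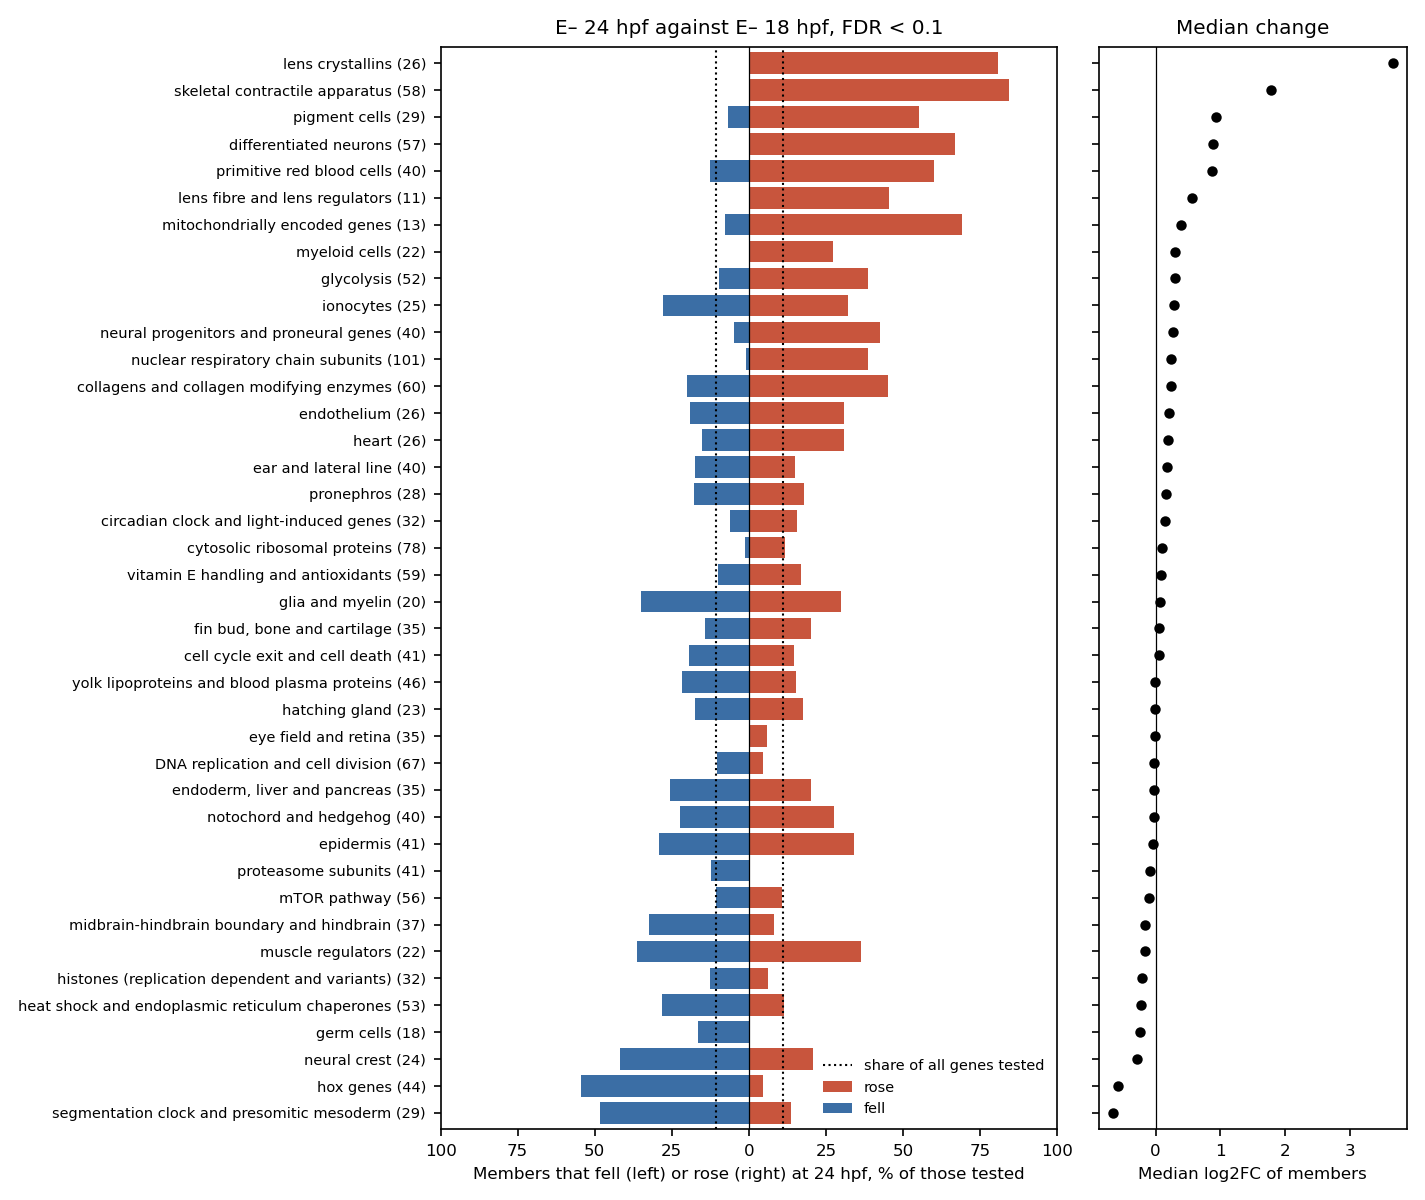
For 40 gene lists (tested members in brackets), the share of members that rose (red, right) or fell (blue, left) at 24 hpf against 18 hpf in E– embryos at FDR under 0.1, with the median log2FC of the members on the right and dotted lines at the shares over all genes tested (11.2% rose, 10.6% fell). Crystallins, contractile genes, pigment cells, neurons and red blood cells stand at the top, and hox genes and the presomitic mesoderm at the bottom. Crystallins silent at 18 hpf could pass the filter on reads only through the 24 hpf pools, so their share describes the members tested.

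To ask whether these changes differed with VitE, the same interval was examined in E+ embryos, which share no pools with the E– comparison. There 4863 genes were DE (24.8%), 2566 up (13.1%) and 2297 down (11.7%). Of the 4278 genes called in E– embryos, 4114 (96.2%) had the same sign in E+ embryos. Both comparisons called 2988 genes, which is 69.8% of the E– calls and 61.4% of the E+ calls. Over the genes that rose in E– embryos the median log2FC was 0.90 in E– and 0.80 in E+ embryos, and over those that fell −0.52 in E– and −0.43 in E+ embryos; both medians were chosen on the E– values and lean towards them. Across the 19597 genes, which are not independent, Pearson's r between the log2FC of E– and E+ embryos was 0.685 and Spearman's rho 0.601.

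**Figure D5:**
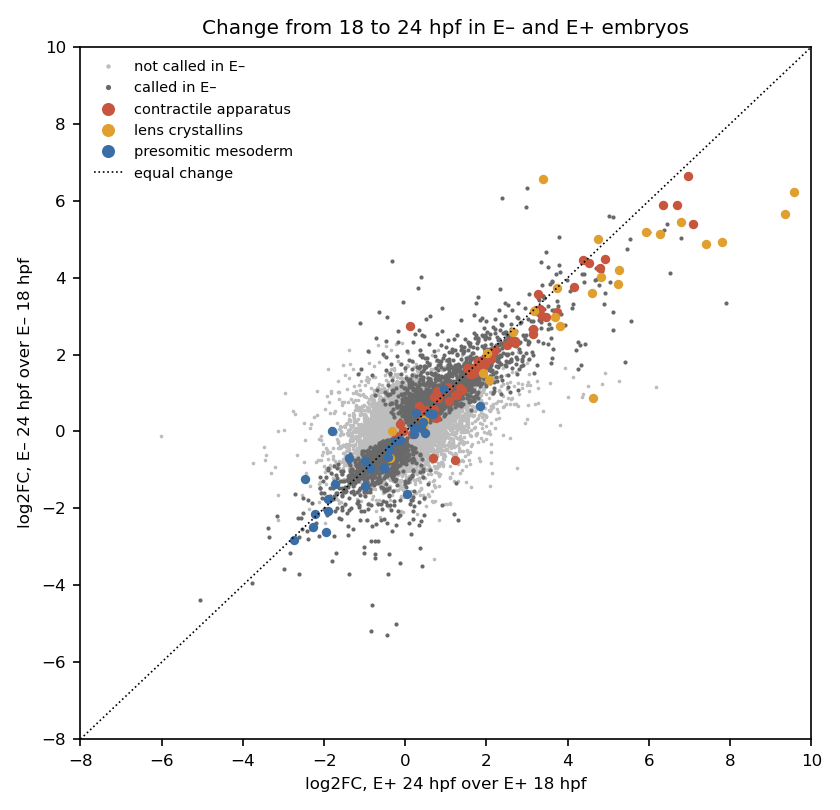
log2FC of 24 hpf over 18 hpf in E+ embryos (horizontal) and E– embryos (vertical) for 19597 genes, with called genes in dark grey, contractile genes in red, crystallins in yellow, presomitic mesoderm in blue and a dotted line at equal change. The coloured groups lie along the line, with the crystallins mostly on its E+ side.

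The difference of the 2 changes (E– minus E+) was tested for each gene in the same edgeR fit. No gene passed FDR under 0.1, the smallest FDR being 0.608, and 925 genes (4.72%) had an unadjusted p under 0.05. DESeq2 gave none either, with 1031 genes at an unadjusted p under 0.05. Without E+ 24 hpf replicate 1 the count was 1, zgc:174154 (difference −1.71, FDR 0.0646), and with all genes that had a read it was 4, among them zgc:174154 and cited4a. The median SE of a difference was 0.35 log2 units, so differences of the order of 1 log2 unit or less could be missed in many genes, and the result does not show that E– and E+ embryos developed alike.

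Group by group the medians were near each other: contractile genes had a median log2FC of 1.79 in E– and 1.79 in E+ embryos, presomitic mesoderm −0.66 and −0.43, red blood cells 0.87 and 0.94, neurons 0.89 and 0.82, pigment cells 0.94 and 1.296, and crystallins 3.66 and 4.205, each pair given E– before E+. These differences between groups of genes were not tested. Among single genes the unadjusted p of the difference was 0.00167 for pvalb4 (log2FC 5.39 in E– and 7.09 in E+ embryos), 0.00133 for gch2 (2.36 and 3.28), 0.00113 for aep1 (3.88 and 5.05) and 0.00691 for TYRP1 (ENSDARG00000056151; 3.80 and 4.76), and all 4 had an FDR of 0.748 or more. These 4 were picked from genes named above, and each had a smaller log2FC in E– embryos. A smaller log2FC can come from a higher level at the earlier time as well as from a lower level at the later time. The paper lists pvalb4 among the genes most increased in E– over E+ embryos at the earlier time. Other list members had a larger log2FC in E– than in E+ embryos. By the same test the unadjusted p was 0.00551 for ecscr (log2FC 0.86 in E– and −0.07 in E+ embryos) and 0.00669 for sspo (0.77 and −0.60).

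The smallest p-value of a difference belonged to cited4a, a transcriptional co-activator. In E– embryos it had 81.6, 115, 66.3 and 82.7 CPM in the 24 hpf pools, against 64.0, 57.3, 77.6 and 77.9 CPM in the 18 hpf pools. In E+ embryos it had 60.6, 54.4, 50.5 and 54.4 CPM at 24 hpf, against 73.8, 71.5, 89.7 and 105 CPM at 18 hpf. The log2FC was 0.32 in E– and −0.63 in E+ embryos (FDR of the difference 0.608, and 0.00178 when all genes with a read were tested). Its own E– change passed the threshold with all genes that had a read (log2FC 0.32, FDR 0.0692), with only the E– 18 and 24 hpf pools in the fit (0.31, FDR 0.0672) and without E– 24 hpf replicate 3 (0.43, FDR 0.0434). The E– pools of the 2 times overlapped, and in E+ embryos all 4 pools at 24 hpf were below the 4 at 18 hpf. Next came tia1l (log2FC −0.15 and 0.56), nfkbiaa, an inhibitor of NF-κB signalling (−0.23 and −2.07), CC2D1B (0.45 and −0.30), kiaa1549lb (0.96 and −0.75) and si:ch1073-13h15.3 (3.73 and 0.32). CC2D1B and kiaa1549lb, with si:ch211-171b20.3, rose in E– and fell in E+ embryos, and their differences had an FDR between 0.608 and 0.621.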

How the data were processed

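RNA of 24 pools of 10 whole embryos (4 pools for each diet at 12, 18 and 24 hpf) was made into QuantSeq 3′ mRNA FWD libraries and sequenced as single-end reads. The authors checked reads with FastQC 0.11.5, trimmed them with bbduk and aligned them with STAR 2.7.3a to GRCz11, and deposited whole-number counts per Ensembl gene that were not normalized; the strand used for counting is not given in the sources used here. Reads off genes were left out (44.8% to 47.5% of reads at E– 24 hpf and 42.1% to 45.3% at E– 18 hpf). Replicates 1 and 2 of every group ran on lane 7 and replicates 3 and 4 on lane 8.

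Counts were filtered by filterByExpr and scaled by TMMwsp, and 6 diet by time groups were fitted in edgeR 4.0.16 (R 4.3.3, limma 3.58.1) by quasi-likelihood. P-values were adjusted over 19597 genes, and FDR under 0.1 was called. SE is the absolute log2FC over the square root of F. Symbols were found for 29201 of 32520 gene IDs. Counts were simulated for E– 24 against 18 hpf over 19597 genes, with 200 genes changed in each run. Of these, 25.5% were recovered at a change of 0.5 log2 units and 59% at 1, with 5 and 14 unchanged genes called. Far fewer genes changed in each run than the 4278 called in the data, so recovery in the data may differ.

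Named genes were, in each direction, the 12 with the largest log2FC among called genes of at least 10 CPM in the higher group whose pools did not overlap, the 3 of smallest p in each list, the 6 of smallest p for the diet difference and the 3 most abundant. A few genes that met this rule are not reported here. Other genes were added after their values were seen. The comparison and the 40 lists were chosen with earlier results of these data known. Alternatives were TMM, upper quartile or no scaling, 2 other filters, DESeq2 1.42.0, a newer quasi-likelihood, fewer groups, a lane term, a replicate block, FDR under 0.05 and leaving out each pool. Plots used matplotlib 3.10.9 in Python 3.11.15.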

Additional observations from a re-analysis of the deposited data

Results flagged for a closer look

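In groups of 4 pools, a value was singled out where its gap to the nearest of the others took up more of the group's whole range than Dixon's critical value allows. Chance singles out about 1 group in 20, and the criterion picked 29 of 492 gene groups (5.894%). Among the library measures, E– 18 hpf replicate 2 had 22854 genes detected and the other 3 pools 23529 to 23597. That pool also gave 8 of the 29 gene values, the most of any pool, followed by E– 24 hpf replicate 1 with 7; no cause was tested.

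At 24 hpf the pool apart was the highest for these genes of E– embryos. TNNT3 (ENSDARG00000068457) had 257 CPM in 24 hpf replicate 2 and 221 to 225 CPM in the other 3 pools. MYF5 had 5.51 CPM in 24 hpf replicate 1 and 3.67 to 3.75 CPM in the other 3 pools. aep1 had 79.6 CPM in 24 hpf replicate 1 and 58.2 to 61.5 CPM in the other 3 pools. tia1l had 49.8 CPM in 24 hpf replicate 1 and 42.1 to 42.8 CPM in the other 3 pools. SLC25A37 had 2.05 CPM in 24 hpf replicate 2 and 0.751 to 0.962 CPM in the other 3 pools. apoea had 54.2 CPM in 24 hpf replicate 1 and 25.3 to 30 CPM in the other 3 pools. nppb had 2.19 CPM in 24 hpf replicate 1 and 0.671 to 0.847 CPM in the other 3 pools. ripply2 had 1.91 CPM in 24 hpf replicate 2 and 0.845 to 0.923 CPM in the other 3 pools. smyhc1 had 736 CPM in 24 hpf replicate 4 and 633 to 647 CPM in the other 3 pools. It was the lowest for the genes that follow. vox had 2.75 CPM in 24 hpf replicate 2 and 4.11 to 4.29 CPM in the other 3 pools. grin2da had 2.36 CPM in 24 hpf replicate 1 and 4.11 to 4.17 CPM in the other 3 pools. SLC1A2 had 12.8 CPM in 24 hpf replicate 1 and 16.1 to 16.5 CPM in the other 3 pools. HOXC6 (ENSDARG00000101954) had 8.19 CPM in 24 hpf replicate 2 and 10.8 to 11.3 CPM in the other 3 pools. krt4 had 8710 CPM in 24 hpf replicate 2 and 9180 to 9260 CPM in the other 3 pools. NOP56 had 830 CPM in 24 hpf replicate 4 and 963 to 990 CPM in the other 3 pools. ncl had 230 CPM in 24 hpf replicate 2 and 257 to 259 CPM in the other 3 pools.

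At 18 hpf the pool apart was the highest for some genes. nfil3-5 had 16.2 CPM in 18 hpf replicate 3 and 14.4 to 14.6 CPM in the other 3 pools. CAT had 6.78 CPM in 18 hpf replicate 2 and 5.1 to 5.26 CPM in the other 3 pools. GAD1 had 3.45 CPM in 18 hpf replicate 2 and 0.837 to 1.17 CPM in the other 3 pools. PYGM (ENSDARG00000055518) had 3.44 CPM in 18 hpf replicate 4 and 1.79 to 2.05 CPM in the other 3 pools. SST had 0.418 CPM in 18 hpf replicate 1 and 0 to 0.066 CPM in the other 3 pools. The lowest pool stood apart in the remaining ones. MEOX1 had 62.5 CPM in 18 hpf replicate 2 and 64 to 64.3 CPM in the other 3 pools. pecam1a had 0.491 CPM in 18 hpf replicate 4 and 1.43 to 1.58 CPM in the other 3 pools. atp5meb had 109 CPM in 18 hpf replicate 2 and 134 to 135 CPM in the other 3 pools. MITF had 3.26 CPM in 18 hpf replicate 2 and 6.1 to 6.4 CPM in the other 3 pools. NEB had 113 CPM in 18 hpf replicate 2 and 124 to 126 CPM in the other 3 pools. ckmb had 36.9 CPM in 18 hpf replicate 2 and 51.5 to 52.5 CPM in the other 3 pools. ripply1 had 9.83 CPM in 18 hpf replicate 3 and 12.9 to 13.1 CPM in the other 3 pools. smyhc1 had 409 CPM in 18 hpf replicate 2 and 460 to 467 CPM in the other 3 pools.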

How the results depend on the processing

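The count of DE genes in E– embryos was 3230 to 4742 over the settings tried and 3500 to 3999 when 1 pool was left out, within 1.5 times of 4278, and the same held for rises, falls and changes of at least 1 log2 unit. Falls outnumbered rises with upper quartile scaling (2020 rose and 2478 fell), with TMM (2076 and 2298) and without scaling factors (2059 and 2175). For the difference between E– and E+ embryos the count was 4 with all genes that had a read (cited4a, zgc:174154, si:ch73-368j24.14 and si:dkey-261m9.18; 1498 at an unadjusted p under 0.05) and 0 to 1 when 1 pool was left out, the 1 being zgc:174154 without E+ 24 hpf replicate 1; the cause was not tested. Of 4666 values for 246 genes, 4635 kept direction and side of the threshold, 17 lost the call, 14 gained one and 0 called genes turned sign. With only the E– 18 and 24 hpf pools in the fit smyhc1, rx1, cited4a, he1.2, nes and ENSDARG00000080337 gained the call. Of 720 medians of gene lists 61 moved by more than the spread between pools. With the replicate block 2146 genes rose and 2040 fell. Same-numbered pools deviated together little, with correlations between 24 and 18 hpf of −0.0042 to 0.0417 in E– and −0.0083 to 0.0707 in E+ embryos. E– 24 hpf pools did not all correlate best with their own number, although the highest value in each diet was from a same-numbered pair. Whether same-numbered pools shared a spawning cannot be told from such small correlations. Genes under about 1 CPM rest on few reads per group, and changes of 0.5 log2 units were mostly missed in simulation. Pools stand for 10 embryos, and spread between single embryos was not measured.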

Other observations

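These gene families were put together after the values of all genes had been seen, and their counts are descriptions. Genes for proteins that assemble ribosomes in the nucleolus were lower at 24 hpf almost throughout. Of 120 tested, 109 fell, 1 of them by at least 1 log2 unit, and none rose. Their median log2FC was −0.59 (−0.62 to −0.56 over the alternatives). In 102 of the 120 every 24 hpf pool lay below every 18 hpf pool, against 9.73% of all genes tested. The summed level was 8221 to 9045 CPM in the 24 hpf pools, against 12465 to 13148 CPM in the 18 hpf pools. Nucleophosmin npm1a had 339, 323, 349 and 322 CPM in the 24 hpf pools, against 636, 607, 629 and 604 CPM in the 18 hpf pools (log2FC −0.89, SE 0.07, FDR 1.10e-11). Nucleolin ncl (251 CPM at 24 hpf against 396 at 18 hpf), fibrillarin FBL (145 CPM at 24 hpf against 230.3 at 18 hpf), the small nucleolar ribonucleoprotein core genes NOP56 (942 CPM at 24 hpf against 1246 at 18 hpf) and DKC1 (453 CPM at 24 hpf against 619 at 18 hpf) and POLR1A, the largest subunit of RNA polymerase I (59.9 CPM at 24 hpf against 104 at 18 hpf), fell with it. The same 120 genes gave 102 falls, no rise and a median of −0.63 in E+ embryos. The genes of cytosolic ribosomal proteins themselves had a median log2FC of 0.09 in E– embryos. Genes of splicing proteins fell less, 33 of 86 tested with 3 that rose (median −0.17).

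Among 16 cathepsins, lysosomal proteases of which some digest yolk, 7 fell and none rose (median log2FC −0.34). CTSC had 68.9, 50.8, 60.0 and 75.8 CPM in the 24 hpf pools, against 164, 187, 179 and 163 CPM in the 18 hpf pools (log2FC −1.44, SE 0.11, FDR 1.12e-12), and CTSB averaged 131 ± 28.0 CPM at 24 hpf against 273 ± 23.4 CPM at 18 hpf. Genes of citric acid cycle enzymes rose with those of the respiratory chain, 11 of 24 with none that fell (median 0.37). Among them were MDH1 (146 CPM at 24 hpf against 95.2 at 18 hpf) and SUCLA2 (24.8 CPM at 24 hpf against 14.1 at 18 hpf). Of 20 glycogen enzymes 6 rose and none fell, and the 2 genes for muscle glycogen phosphorylase PYGM had log2FC of 3.18 and 2.23. Of 115 potassium, sodium and calcium channel subunits 25 rose and 1 fell (median 0.44), led in level by the calcium-activated potassium channel KCNMA1 (25.3 CPM at 24 hpf against 13.1 at 18 hpf) and including CACNA1S (ENSDARG00000042552), the voltage sensor of muscle excitation (log2FC 1.72). Of 40 glutamate, glycine and GABA receptor subunits 6 rose, not far above the 11.2% over all genes, and 1 fell, below the 10.6%. Among the 6 were GRIA2 at 3.64 CPM at 24 hpf against 0.863 at 18 hpf and glra4a with a log2FC of 1.84.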
